A study of Mus musculus with 2 samples.

Results

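The JADE, BRPF and ING genes encode the scaffold and reader subunits of histone acetyltransferase complexes of the MYST family, and 10 of them were followed here: Jade1, Jade2, Jade3, Brpf1, Brd1, Ing4, Ing5, Meaf6 and the enzyme genes Kat7 and Kat6a. Members were taken by gene name, as every probe set that the platform annotation pairs with 1 of these symbols alone. This gave 25 probe sets for the 10 genes, of 18193 genes named on the array. The family was chosen by its measured differences between these same arrays, with the low value of Jade2 already known, so its values are a description and support nothing about the family as a class.

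Messenger RNA of E14 cells, an established mouse embryonic stem cell line, was measured on 2 Affymetrix 3' expression arrays. In 1 group the cells carried a lentiviral short hairpin RNA (shRNA) against Mll2, a histone H3 lysine 4 methyltransferase, and in the other a lentiviral control shRNA. Per the labels' protocols, infection lasted 24 h and puromycin selection, at a stated 2 mg/ml, 5 days. With 1 array in each group, replicate error could not be estimated and no test between the groups was possible.

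In these complexes a MYST enzyme carries the catalytic domain and a JADE or BRPF protein holds it to a small ING protein and to MEAF6. KAT7, also called HBO1, acetylates mainly histone H4 when bound to a JADE scaffold and histone H3 when bound to a BRPF scaffold, whereas KAT6A works with BRPF scaffolds. The PHD finger of ING4 and ING5 binds trimethylated lysine 4 of histone H3, a mark that some methyltransferases of the MLL family write. This mark was not measured here.

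The authors' MAS5 signals are given as deposited, linear or as log2. A probe set was taken as measured if it lay above a floor on at least 1 array. The floor was the median of all values, a signal of 64.8 or 6.02 as log2. A gene was represented by its measured probe set with the highest mean. Ratios are log2 of Mll2 shRNA over control shRNA, with values under the floor raised to it, and each is set beside the spread at its level, a robust SD (the median absolute deviation, scaled to match an SD) of the ratios of the 500 genes whose mean level was closest. Signals of different probe sets depend on their probes, so the levels of different genes were not ranked, and sums over markers were compared only between the arrays. The arrays had medians of 6.01 (Mll2 shRNA) and 6.02 (control) over all probe sets on the log2 scale.

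Both Kmt2d and Kmt2b have gone by the name Mll2, and the targeted one is not named in the labels. Kmt2d had a signal of 335 on the Mll2 shRNA array and 736 on the control array (log2 ratio -1.14), in its 1 measured probe set of 2. Kmt2b had signals of 852 and 901 (log2 ratio -0.08, and 0.04 with scaling on spike-in controls), against a spread of 0.27 at its level. All 10 embryonic stem cell markers examined were above the floor on both arrays, and their summed signal was 93530 on the Mll2 shRNA array and 96913 on the control array. Of markers of other cell types, 3 of 8 fibroblast genes were measured, 5 of 6 for primitive endoderm, 5 of 6 for trophoblast and all 5 for neural progenitors. Summed over all listed genes, also those under the floor, signals on the Mll2 shRNA and control arrays were 719 and 594 for fibroblasts. They were 1177 and 727 for primitive endoderm, 10142 and 15020 for trophoblast, and 1276 and 1128 for neural progenitors. The sums hide genes that went opposite ways or moved more than their list. Among the stem cell markers Klf4 (log2 ratio 0.59), Esrrb (0.53) and Nanog (0.47) were higher with the Mll2 shRNA and Pou5f1 (-0.44), Utf1 (-0.41) and Tdgf1 (-0.37) lower. Of the neural markers Sox1 had signals of 286 and 114, whereas Pax6 was at 581 and 556. Hes5 was at 122 and 16.3 (under the floor on the control array) in its measured probe set. The neural sum used another Hes5 probe set, so this difference is not part of it. In these sums Foxa2, of the primitive endoderm list, was at 601 against 128, whereas Dab2 was at 221 against 331 (log2 ratio -0.59). The others there were Sox17 (0.59) and Sox7 (0.24), both under the floor on the control array, and Gata6 (0.03). Most of the trophoblast sum was Krt8 (9200 against 13635). Krt7 (log2 ratio -0.84), Cdx2 (-0.33) and Ascl2 (-1.03, under the floor on the Mll2 shRNA array) were also lower, and Eomes (0.18) was higher. Of the fibroblast genes Col1a2 (0.70) and Col3a1 (0.34) were higher, whereas Col1a1 (-0.58, under the floor on the Mll2 shRNA array) was lower. Gata4, Elf5, Thy1, Pdgfra, Postn, Lum and Dcn did not pass the floor on either array. The part of these cell types in the values below was not tested.

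**Figure D1:**
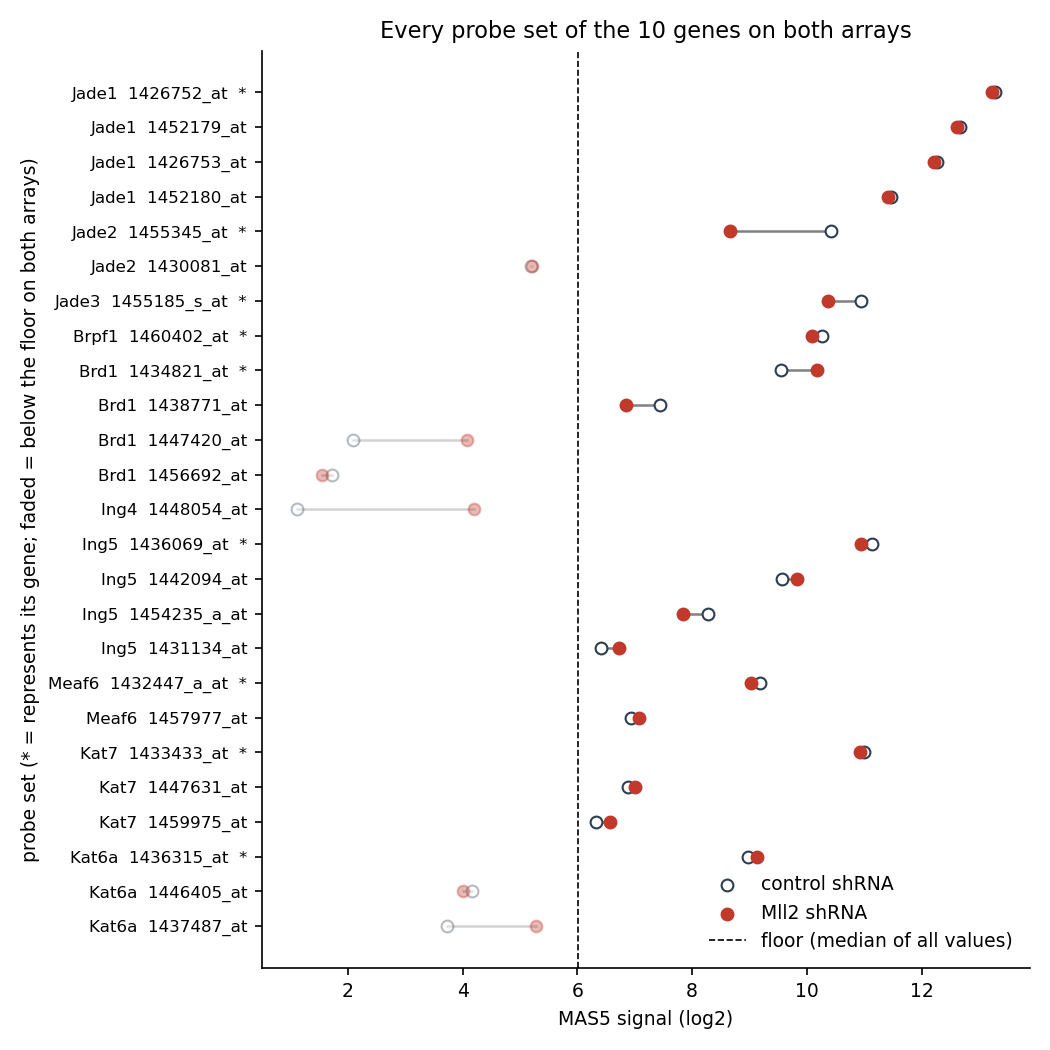
Log2 MAS5 signal (x axis) of all 25 probe sets of the 10 genes (y axis), with 1 open point for the control shRNA array and 1 filled point for the Mll2 shRNA array. The 19 measured probe sets lie right of the dashed floor at 6.02, the long line among them is Jade2 (8.65 against 10.42), the 4 Jade1 pairs nearly coincide, and the 6 faded probe sets did not pass the floor.

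Jade2 was the member that differed most. It was 3.39-fold lower with the Mll2 shRNA, while of its paralogs Jade1 was 3.4% lower, less than the spread at its level, and the X-linked Jade3 32.3% lower. Of the 10 members, 9 were measured, and all 9 were above the floor on both arrays. Of these 9, 1 was at least 2-fold lower, where 0.983% of all 11805 measured genes were. None was at least 2-fold higher, where 1.47% of all measured genes were. Since the family was selected on this contrast, nothing is read from these counts. The median ratio was -0.17 over the 9 members, and -0.12 over the 8 without Jade2, against 0.03 over all measured genes.

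The JADE scaffolds bring KAT7 to histone H4. Jade2 had a signal of 403 on the Mll2 shRNA array and 1366 on the control array, 70.5% lower, in probe set 1455345_at. Its log2 ratio of -1.76 was the 7th lowest of the 11805 measured genes, none of the 500 genes closest to it in level was lower, and the spread at that level was 0.29. Under the 4 other scalings the ratio ran from -1.81 to -1.64. In bulk RNA, fewer cells that express a gene and less RNA per cell cannot be told apart.

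The Jade2 value rests on 1 probe set. The other one, 1430081_at, had signals of 36.8 and 36.5, under the floor on both arrays, and gives no ratio. The Jade2 difference therefore has no second measurement on these arrays.

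Jade1 was read by 4 probe sets, all paired by the annotation with the same sequence record. Their signals were 9597 and 9935 (Mll2 shRNA and control), 6264 and 6482, 4787 and 4948, and 2730 and 2847. All 4 were slightly lower with the Mll2 shRNA, and their log2 ratio averaged -0.05 ± 0.0057 (SD over 4 probe sets). Of the 5325 genes with several measured probe sets, 68 had a smaller SD. The difference itself is under the spread of 0.19 at this level, and its sign depended on the scaling, from -0.04 after median centring to 0.07 with spike-in scaling. Jade1 RNA was thus within 1.2-fold on both arrays under every scaling tried.

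Jade3 had a signal of 1328 on the Mll2 shRNA array and 1960 on the control array. This is a log2 ratio of -0.56 against a spread of 0.26 at its level. Among the 500 genes closest to it in level, 11 were lower. The ratio kept its sign under the 4 other scalings, from -0.58 to -0.44. Its 1 probe set carries the suffix _s_at, which marks probes that can detect more than 1 transcript.

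**Figure D2:**
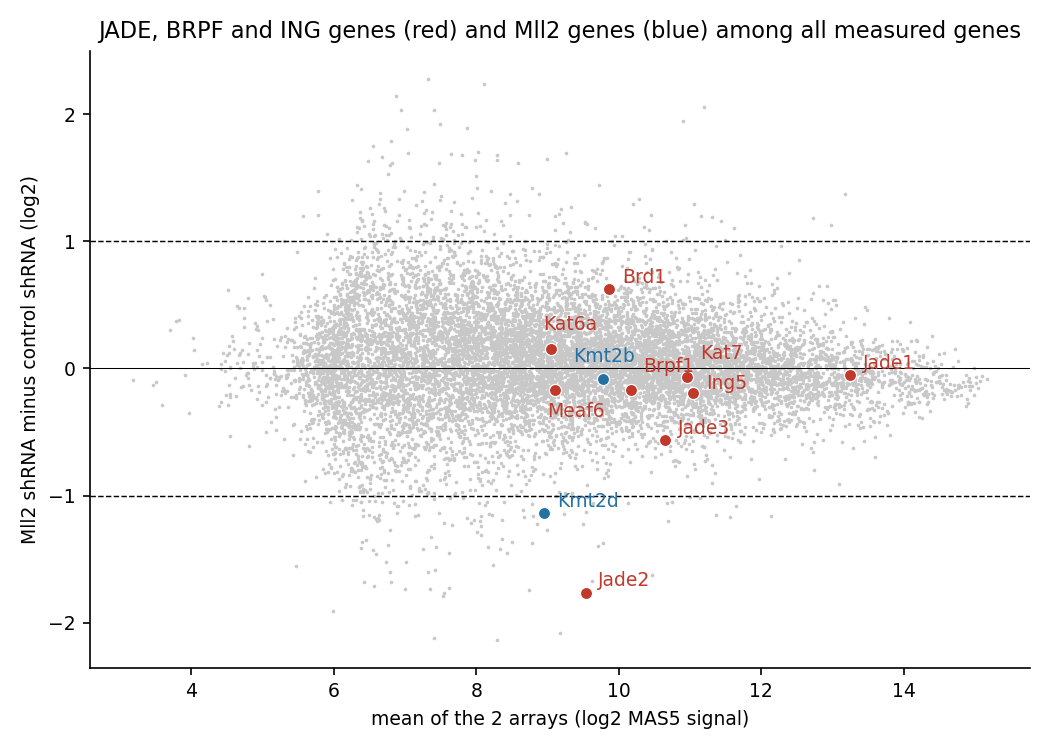
Log2 ratio of Mll2 shRNA over control shRNA (y axis) against the mean log2 signal of the 2 arrays (x axis) for 11805 measured genes, with dashed lines at 2-fold. Jade2 (-1.76) and Kmt2d (-1.14) lie below the lower line, Jade3 (-0.56) and Brd1 (0.63) lie at opposite edges of the cloud, and the other 6 JADE, BRPF and ING genes lie inside it.

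The BRPF scaffolds, Brpf1 and Brd1 (also called Brpf2), direct MYST enzymes to histone H3. Brpf1 had signals of 1089 and 1226 on the Mll2 shRNA and control arrays, a log2 ratio of -0.17 that is under the spread of 0.26 at its level. Brd1 was the highest member, at 1160 against 752 in probe set 1434821_at, a log2 ratio of 0.63 or 1.54-fold. The spread there was 0.28, and 14 of the 500 genes closest in level were higher.

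The probe sets of Brd1 contradicted each other in direction. The second measured one, 1438771_at, had signals of 115 and 173, a log2 ratio of -0.59. Over both, the mean ratio was 0.02 ± 0.86 (SD over 2 probe sets), and of the 5325 genes with several measured probe sets 42 had a larger SD. The brighter probe set was higher with the Mll2 shRNA and the dimmer one lower, by nearly the same factor. A further 2 Brd1 probe sets were under the floor on both arrays. These arrays therefore give no single direction for Brd1 as a gene.

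The ING subunits and MEAF6 complete the complexes. Ing5 was read by 4 measured probe sets, whose signals on the Mll2 shRNA and control arrays were 1979 and 2259, 907 and 763, 228 and 310, and 106 and 84.9. Their log2 ratios were -0.19, 0.25, -0.44 and 0.32, so that 2 were lower and 2 higher, and their mean was -0.02 ± 0.36 (SD over 4 probe sets). Meaf6 had signals of 520 and 585 in 1 probe set and 135 and 123 in the other, with log2 ratios of -0.17 and 0.13. Neither Ing5 nor Meaf6 departed from 0 by more than its probe sets differed among themselves.

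Ing4 could not be followed. The probe set that names it alone, 1448054_at, had signals of 18.4 and 2.15, under the floor of 64.8 on both arrays.

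Of the enzymes, Kat7 had signals of 1946 and 2043 in its brightest probe set, a log2 ratio of -0.07. The other 2 measured probe sets gave 128 and 117, and 95.5 and 80.0, with log2 ratios of 0.12 and 0.25. The 3 probe sets averaged 0.10 ± 0.16 (SD), and spike-in scaling moved the brightest to 0.05. Kat6a had signals of 559 and 502, a log2 ratio of 0.15 under a spread of 0.34 at its level, and its other 2 probe sets were under the floor. Neither enzyme gene differed by more than 1.2-fold in the probe set used for it, and Kat7 had no fixed sign.

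**Figure D3:**
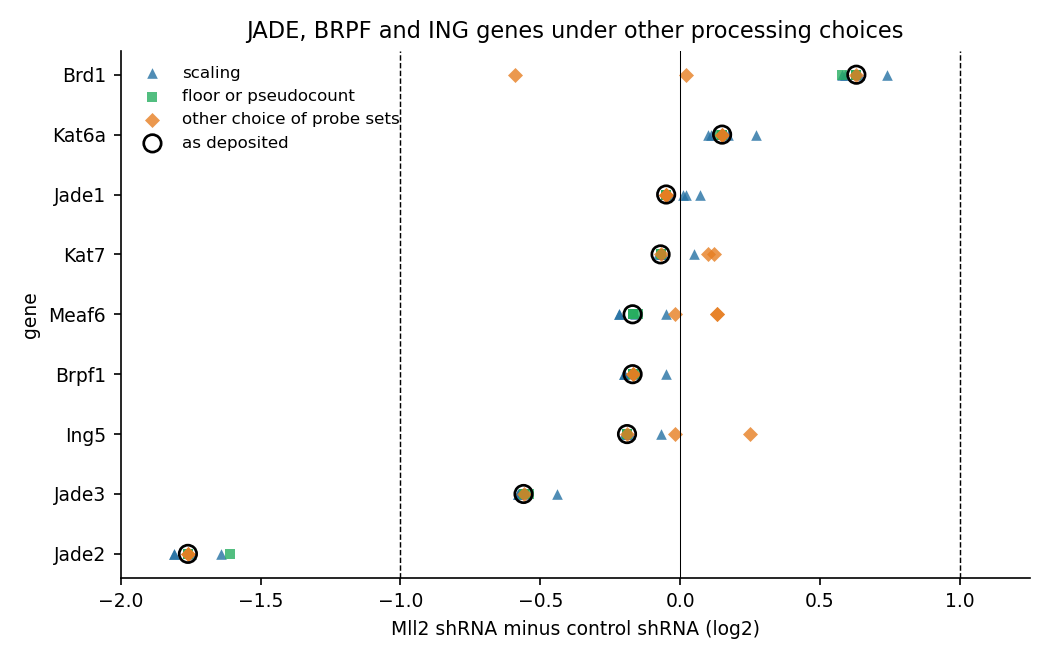
Log2 ratio (x axis) of each of the 9 measured genes (y axis) as deposited (open circles) and under other scalings, floors and choices of probe sets, with dashed lines at 2-fold. Jade2 stays between -1.81 and -1.61, whereas Brd1 runs from -0.59 to 0.74 with the probe set used.

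Among the 9 measured members, 7 were below 0 and 2 above, while 46.5% of all measured genes were below 0. With spike-in scaling 5 were below 0 and 4 above. The spike-in controls are the array's bioB, bioC, bioD and cre hybridization controls. Whether they track the amount of input RNA was not tested. They averaged -0.12, and setting them equal moved the median of all genes from 0.03 to 0.14. Relative to that median the members' median was -0.20 as deposited and -0.19 with spike-in scaling. At 2-fold spike-in scaling gave 258 genes higher and 82 lower, against 173 and 116 as deposited. Of the members 6 lay within 1.2-fold, as did 57.8% of all genes, and 2 (Jade2 and Brd1) were 1.5-fold or more apart, as were 12.1% of all genes. By probe set, 12 of the 19 measured were lower and 7 higher, and 4 of the 5 members with several measured probe sets had probe sets on both sides of 0, as did 47.5% of the 5325 genes with several.

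The genes beside Jade2 on chromosome 11 were looked up after its value was seen, using the gene order of the RefSeq annotation of GRCm38.p6. Of the 3 protein-coding genes on either side 5 were measured, and their log2 ratios ran from -0.35 to 0.32. The nearest were Sar1b, a GTPase of transport vesicles from the endoplasmic reticulum, at -0.09, and Cdkn2aipnl, at 0.15. No measured neighbour of Jade2 reached 2-fold, where 0.983% of all measured genes were at least 2-fold lower and 1.47% higher. With 5 genes, nothing is read from this.

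Related genes were then examined in lists. Of all measured genes 0.983% were at least 2-fold lower and 1.47% higher, so nothing is read from a short list with none. Of 26 other MYST enzymes and subunits of MYST complexes, 25 were measured and none was at least 2-fold apart. Their median was 0.03 (-0.02 after loess and 0.15 with spike-in scaling). Of them 15 were above 0 and 10 below, where 46.5% of all measured genes were below. In the probe sets used, the largest value was in Kat6b, the paralog of Kat6a, with signals of 4511 and 2730. Its log2 ratio was 0.72 (spread 0.22), in its 1 measured probe set. Mbtd1 was at -0.11 in the probe set used, but averaged -0.41 over its 4 measured ones and reached -0.98. Brpf3, the third BRPF scaffold, was at 0.57 and its second probe set at -0.43, so that it shared with Brd1 a split between probe sets. Mrgbp, a subunit of the TIP60 complex, was at -0.45, and Msl1, the scaffold of the MSL complex, at 0.42 with a range of -0.07 to 0.85 over its 4 measured probe sets. The 4 genes that share the PHD-zinc knuckle-PHD module of the JADE and BRPF proteins had a median of 0.14, whose sign turned with the probe sets used (-0.25 over second probe sets and -0.12 without the probe sets with suffixes). Of these, Mllt6 was at -0.25, Mllt10 at 0.26 and Phf14 at 0.01, with -0.63, 0.13 and -0.07 in their second probe sets. The mean of Mllt6 over its 3 measured probe sets was -0.49. The remaining gene is Brpf3, which is also in the MYST list.

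The next list held acetyltransferases of other families. Of 11 listed, 10 were measured, with a median of 0.11 (-0.07 over second probe sets and 0.23 with spike-in scaling) and none at 2-fold. In the probe sets used, the largest were Taf1, a subunit of TFIID (0.39, spread 0.29), and Kat2b (0.30, spread 0.22). Ncoa1 (0.30) and Ncoa3 (0.22, with -0.07 in its second probe set) followed. Gtf3c4 was at 0.17, and at -0.79 in its second probe set. Kat2a was at -0.12 in the probe set used, with a mean of -0.32 over its 3 measured ones. The 14 genes of the SIN3 deacetylase complex, which ING1 and ING2 join, had a median of 0.09 (-0.02 over second probe sets and 0.21 with spike-in scaling) and none at 2-fold. In that list the largest were Brms1l (0.48), Arid4a (0.42), Arid4b (0.37) and Brms1 (-0.34). The probe sets of Arid4a reached down to -0.55 and those of Arid4b to -0.22.

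Replication origin licensing genes were included because KAT7 was named for its binding to ORC1. All 15 were measured and 14 were lower with the Mll2 shRNA, where 46.5% of all measured genes were. None reached 2-fold. However, only 9 were lower with spike-in scaling and 12 with the mean over probe sets. The median was -0.15, or -0.18 relative to the median of all genes, and -0.17 relative to it with spike-in scaling. Orc1 had signals of 1373 and 1889 (log2 ratio -0.46, and -0.20 in its second probe set), and Mcm2, a subunit of the replicative helicase, 4642 and 6212 (-0.42, and -0.36 in its second). Mcm4 was at -0.32 in the probe set used and at 0.40 in its second. Orc2 was at -0.22 in the probe set used and at up to 0.18 over its 3 measured ones. Mcm6 (-0.11, and 0.20 in its second), Mcm7 (-0.06 and 0.03) and Orc4 (0.01, and down to -0.12) were split as well. The direction of these genes is not settled. In the probe sets used, the ratios of Orc1, Mcm2 and Mcm4 exceeded the spreads at their levels, which were 0.26, 0.20 and 0.19. Those of the other licensing genes did not. Other probe sets of several of these lay further from 0, down to -0.76 for Mcm3, -0.58 for Orc3 and -0.53 for Mcm5.

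**Figure D4:**
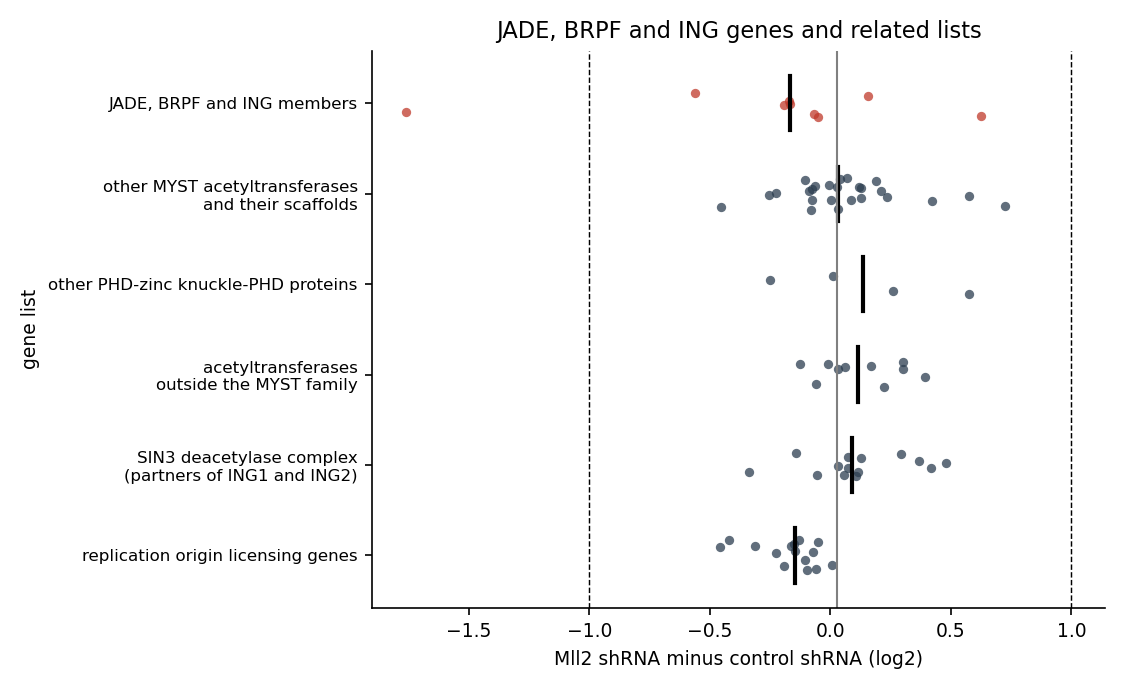
Log2 ratio (x axis) of each measured gene of 6 gene lists (y axis, 1 point per gene), with a thick bar at each list's median, a grey line at the median of all genes (0.03) and dashed lines at 2-fold. Jade2 is the single point beyond 2-fold, and 14 of the 15 licensing genes lie below 0.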

How the data were processed

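RNA from 1 Mll2 shRNA and 1 control shRNA sample was read on Affymetrix arrays. The table deposited by the authors holds log2 values of 45101 probe sets. The signals come from MAS5, per the submitters' processing notes, and its version is not given in the sources used here. MAS5 sets the trimmed mean of every array to 1 target, and the 2% trimmed mean of the signals was 500.0 on both. Mismatch subtraction makes dim probe sets noisy, hence the floor at the 50th percentile. The 64 control probe sets were set aside. Of the rest, 34945 had 1 symbol, 932 several (unused) and 9160 none listed. For 34741 probe sets the symbol was taken by Entrez number from RefSeq (GRCm38.p6), and no coordinates are given.

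The steps were run on simulated data with known changes in genes well above the floor. The simulated noise was set by a formula and not estimated from these arrays. The run therefore checks the code and not the error of these arrays. The members, lists, floor and 2-fold threshold were chosen with earlier results of these data known. Genes named are all members, Kmt2d, Kmt2b, some of the cell type markers, the nearest neighbours of Jade2 and up to 4 genes per list with the largest ratios. Further licensing, MYST and other acetyltransferase genes are named for their other probe sets. A ranking of genes by closeness to the signals of Jade2 was dropped, because signals of different probe sets are not comparable. Alternatives were 4 scalings (median, quantile, loess with span 0.3, and 18 spike-in probe sets), floors at the 30th and 70th percentiles or none, a pseudocount, other choices of probe sets, and thresholds of 1.5-fold and 3-fold. The number of arrays limits the precision. Python 3.11.15, numpy 2.4.6, pandas 2.3.3, scipy 1.17.1, statsmodels 0.14.6 and matplotlib 3.10.9 were used.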

Additional observations from a re-analysis of the deposited data

Results flagged for a closer look

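A probe set outside the comparisons, 1460728_s_at, is annotated with both Acrbp and Ing4 and was left out because it names 2 genes. It had signals of 303 on the Mll2 shRNA array and 209 on the control array, a log2 ratio of 0.53, and is given because its signal was higher than in the control. Which of the 2 genes it reads was not tested.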

How the results depend on the processing

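Single-gene values were judged against the spread at their level and medians against a tolerance of 0.1. The members' median of -0.17 became -0.05 with spike-in scaling, -0.02 with the mean over probe sets, -0.06 without the probe sets with suffixes and 0.12 over second probe sets, which 5 members have. The count of members at least 2-fold lower was 0 over second probe sets, since Jade2 has no second measured one, and was 1 (Jade2) under each other alternative, including 3-fold. The count at least 2-fold higher was 1 with no floor (Ing4, under the floor on both arrays) and 1 at 1.5-fold (Brd1). Brd1 went from 0.63 to -0.59 and Ing5 from -0.19 to 0.25 in their second probe sets; the cause was not tested. The median of the PHD-zinc knuckle-PHD list (0.14) was 0.25 with spike-in scaling, 0.02 with the mean over probe sets and 0.04 with a floor at the 70th percentile. Kmt2d stayed between -1.19 and -1.02 under the 4 scalings. Loess, quantile normalization and median centring left all 3 results for the members within these limits. Ratios of probe sets near the floor are the least precise. No paired analysis was possible because each group has 1 array and the labels give no replicate numbers.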
